A study of Homo sapiens with 9 samples.

Results

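The genes described here encode the proteins that carry a cell from G2 through mitosis, and they were followed in A2780 human ovarian carcinoma cells after treatment with DIG-MSK. The list holds 44 genes, given by name. A gene was represented by array probes designed on one of its RefSeq transcripts, and 43 of the 44 had at least 1 such probe, while UBE2C was not analysed here. Of the 43, 33 had 1 probe, 9 had 2 and 1, MKI67, had 3. They are 43 of the 21981 genes tested. The probe used for each was well above background on all 9 arrays, so no member was lost to the filter on dim probes.

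DIG-MSK is an analogue of the antibiotic mithramycin A, a family of compounds that bind C/G-rich DNA in the minor groove. The untreated group was 3 cultures without the compound, and the treated groups were 3 cultures given 8 nM and 3 given 80 nM DIG-MSK for 24 h. All 9 cultures were of the A2780 line, an established cell line, which limits the results to 1 cell line and 1 time point. RNA of every culture received the same single dye and went on 1 array.

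Entry into mitosis is driven by CDK1 bound to a B-type cyclin, which CDC25 phosphatases activate and which PLK1 and the Aurora kinases assist. Kinetochores then attach chromosomes to the spindle, condensin compacts them, CDC20 turns on the anaphase-promoting complex so that separase can cut cohesin, and the central spindle organizes cytokinesis. Transcripts of most of these genes peak late in the cell cycle, through promoters that carry CCAAT boxes, bound by NF-Y, and the cell cycle homology region (CHR), bound by the MuvB core of the DREAM, B-MYB and FOXM1 complexes.

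Promoters of 39 of the 43 genes were found in a RefSeq table of 300-base windows, from 250 bases before to 50 after each annotated start, on GRCh38.p14. AURKA, TPX2, RACGAP1 and PBK had no entry in it. Sequences of 6 are shown over 200 bases, from 180 before the start, as examples of the patterns of change described later. CDK1 and NUSAP1 changed in opposite directions at the different concentrations, and CCNB2 and GTSE1 were lower at both. INCENP had the lowest log2 change at 80 nM against untreated cells, and PLK1 is a master kinase of mitosis. All 6 lie on the plus strand and read from 5′ to 3′, and capitals mark matches to any of the 4 motifs described after them.
CDK1, chr10:60778151-60778350, the cyclin-dependent kinase of mitosis: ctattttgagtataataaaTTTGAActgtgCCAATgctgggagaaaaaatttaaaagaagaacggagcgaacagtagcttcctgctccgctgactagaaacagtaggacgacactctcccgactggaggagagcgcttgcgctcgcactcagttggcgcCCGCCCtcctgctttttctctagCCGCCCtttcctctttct
NUSAP1, chr15:41332701-41332900, a microtubule-bundling spindle protein: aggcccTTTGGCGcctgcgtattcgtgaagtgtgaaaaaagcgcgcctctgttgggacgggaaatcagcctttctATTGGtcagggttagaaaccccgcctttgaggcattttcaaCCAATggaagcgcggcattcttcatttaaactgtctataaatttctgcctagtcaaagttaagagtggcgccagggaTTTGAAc
CCNB2, chr15:59104966-59105165, a B-type cyclin: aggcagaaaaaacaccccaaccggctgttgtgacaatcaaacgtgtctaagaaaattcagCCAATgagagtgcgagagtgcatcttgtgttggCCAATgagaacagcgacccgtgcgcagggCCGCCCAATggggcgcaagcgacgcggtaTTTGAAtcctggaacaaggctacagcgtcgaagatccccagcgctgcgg
GTSE1, chr22:46296690-46296889, a microtubule-binding protein of G2 and mitosis: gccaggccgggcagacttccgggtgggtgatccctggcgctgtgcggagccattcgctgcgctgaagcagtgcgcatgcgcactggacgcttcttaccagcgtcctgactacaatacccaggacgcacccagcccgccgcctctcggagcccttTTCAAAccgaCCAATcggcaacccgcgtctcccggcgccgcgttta
INCENP, chr11:62123831-62124030, the scaffold of the chromosomal passenger complex: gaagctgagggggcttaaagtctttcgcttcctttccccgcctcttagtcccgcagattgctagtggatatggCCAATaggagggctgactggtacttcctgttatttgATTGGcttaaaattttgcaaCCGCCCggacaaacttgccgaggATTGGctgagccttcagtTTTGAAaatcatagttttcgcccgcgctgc
PLK1, chr16:23678709-23678908, polo-like kinase: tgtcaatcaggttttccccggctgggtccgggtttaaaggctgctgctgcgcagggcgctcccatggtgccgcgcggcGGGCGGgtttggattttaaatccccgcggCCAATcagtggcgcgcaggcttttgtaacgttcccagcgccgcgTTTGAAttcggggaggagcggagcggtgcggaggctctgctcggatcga

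The motifs were searched on both strands over the 300 bases: CHR as TTTGAA or TTCGAA, the CCAAT box as CCAAT, the GC box as GGGCGG, which is C/G-rich and of the kind Sp1 binds, and an E2F-type site as TTTCGCG or TTTGGCG. A CHR match was present in 27 of the 39 promoters (69.2%), against 16.4% of all 35116 promoters in the table. CCAAT matched in 28 (71.8%, against 34.6% of all) and the GC box in 30 (76.9%, against 45.0% of all). Both CHR and CCAAT were present in 21 (53.8%, against 6.4% of all), while E2F-type letters were present in 3 (7.7%, against 3.2%). The median GC content was 62.0% for the members and 58.7% for all promoters. In 18 of the 27 genes with a CHR match, one lay between 60 bases before and 20 bases after the start. GTSE1 carried TTCAAA, the CHR read on the minus strand, 21 to 26 bases before its start and a CCAAT box 12 to 16 bases before it. PLK1 and CCNB2 each carried TTTGAA 24 to 29 bases before the start. In CCNB2 a GC box and a CCAAT box overlapped by their letters, as the run of capitals CCGCCCAAT shows. In CDK1 the CHR and CCAAT matches lay further upstream, 156 to 161 and 146 to 150 bases before the annotated start.

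**Figure D1:**
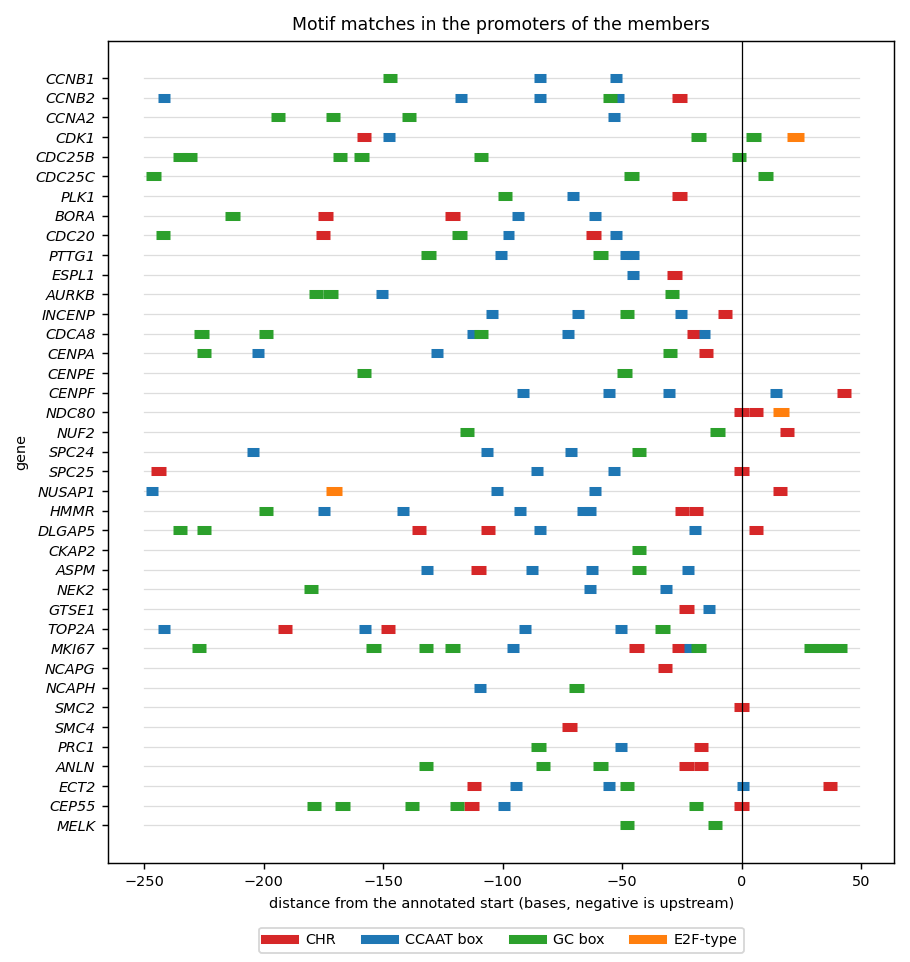
Matches to the CHR, the CCAAT box, the GC box and E2F-type letters in the promoters of 39 genes, 1 line per gene, against the distance in bases from the annotated start (vertical line; negative is upstream). Where matches overlap, the one drawn later covers the other. CHR matches were present in 27 of the 39 genes, 18 of them with a match between 60 bases before and 20 after the start.

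Levels are log2 intensities relative to the 75th percentile of the same array, and changes are log2 differences between group means (limma estimate ± SE, n = 3 arrays per group). The 75th percentile itself ranged between 832 and 1170 intensity units, and 25047 to 27459 of the 42405 gene probes were well above background on an array. No gene spot was saturated. The untreated and 8 nM arrays shared slide 1 and the 80 nM arrays were all on slide 2, where the net signal of the negative controls was lower (22.1 to 22.7, against 31.1 to 38.6 on slide 1), so 80 nM and the second slide cannot be told apart. As to the labelled cell type, KRT8, KRT18, KRT19 and EPCAM were well above background on all untreated arrays, PAX8 on 2 of 3, and CDH1 and MUC16 on none. Of the markers of other cell types, 5 of 6 for fibroblasts and mesenchyme, 4 of 5 for leukocytes and 1 of 4 for endothelium were also well above background on all untreated arrays; PTPRC, the leukocyte antigen CD45, had a mean log2 level of -4.17 there, -4.90 at 8 nM and -4.37 at 80 nM.

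With 8 nM DIG-MSK genes of each of the 8 role groups were lower, most of them by a small amount. Of the 43 genes, 23 were lower and 0 higher (limma with Benjamini-Hochberg adjustment over all genes tested, adjusted p under 0.05), while 5.65% of all genes tested were called lower and 7.83% higher. By the study's rule (a ratio of 1.5 or above, or of 0.67 or below, and an unadjusted p under 0.05), 3 were lower (2.87% of all genes) and 0 higher (4.27% of all genes). The 3 were NUSAP1, MKI67 and SPC24, whose adjusted p was 0.102. The median log2 change was -0.29, against -0.06 for all genes, with a range from -0.75 for MKI67 to 0.08 for TOP2A, the topoisomerase that untangles chromosomes. TOP2A was the only gene of the 43 with a value above 0. In RNA of whole cultures, fewer cells in G2 and mitosis and less transcript per cell cannot be told apart. In 31 genes all 8 nM arrays lay below all untreated arrays, as they did in 18.4% of all genes, and in 0 genes did they all lie above (15.8% of all genes).

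The decrease was seen on each 8 nM array. The median of the members, relative to the mean of the untreated arrays, was -0.33, -0.23 and -0.31 on the 8 nM arrays and lay between -0.04 and 0.02 on the untreated arrays. On slide 1 the untreated arrays and 8 nM replicate 1 lay in slide row 2, while 8 nM replicates 2 and 3 lay in row 1. Row and concentration are therefore partly confounded, and an effect of row was not tested. The number of genes called was less stable than their direction. It was 12, 9 and 12 without untreated replicates 1, 2 and 3, 13 without 8 nM replicate 1, 12 without 8 nM replicate 3 and 28 without 8 nM replicate 2. With arrays scaled to the spike-in probes it was 0, when 0.123% of all genes were called lower and 1.6% higher, and 40 of the 43 estimates were below 0. For the fits without single arrays the share of all genes called is not given here, so those counts have no background beside them. Over all 21 settings, the median of the members minus that of all genes lay between -0.28 and -0.21.

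With 80 nM DIG-MSK some of the 43 genes were higher and others lower, with CDK1 and INCENP at the ends. This comparison uses the same untreated arrays as the first. Of the 43, 9 were lower and 14 higher than in untreated cells, when 25.6% of all genes were called lower and 33.2% higher, so the shares (20.9% and 32.6%) were close to the background. With spike-in scaling, which moved the median of all genes from 0.08 to -0.20, 8 were lower and only CDK1 was called higher. Of all genes, 23.1% were called lower and 8.29% higher with that scaling. The median log2 change of the members was -0.02, and the range ran from -1.63 for INCENP to 1.13 for CDK1. All 80 nM arrays lay below all untreated arrays in 17 genes (31.7% of all genes) and above them in another 17 (40.3% of all genes). By the study's rule INCENP and MKI67 were lower (16.4% of all genes) and CDK1, CDC25B, NCAPH and ECT2 were higher (18.9% of all genes).

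**Figure D2:**
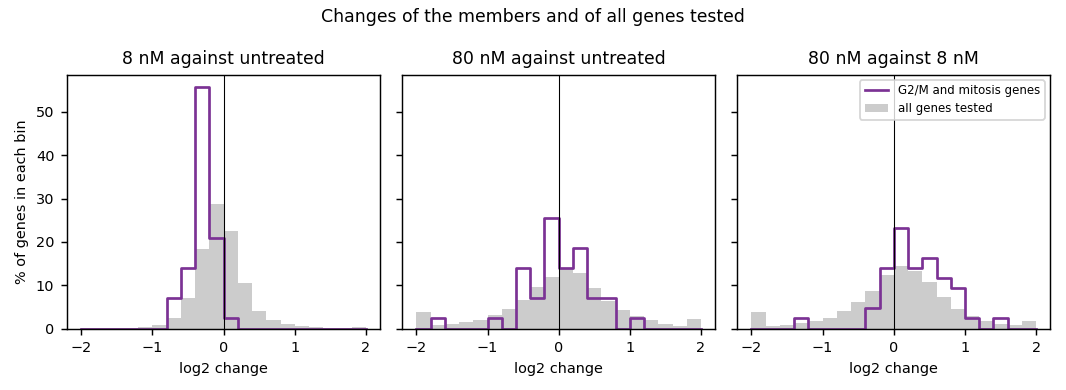
Share of genes (%) in bins of 0.2 log2 units of change, for the 43 mitotic genes (line) and for all genes tested (grey bars), in the 3 comparisons; changes beyond the axis are counted in the outermost bins. At 8 nM, 24 of the 43 genes fall between -0.4 and -0.2, while at 80 nM they spread to both sides of 0 around a median of -0.02, or of -0.30 with spike-in scaling.

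**Figure D3:**
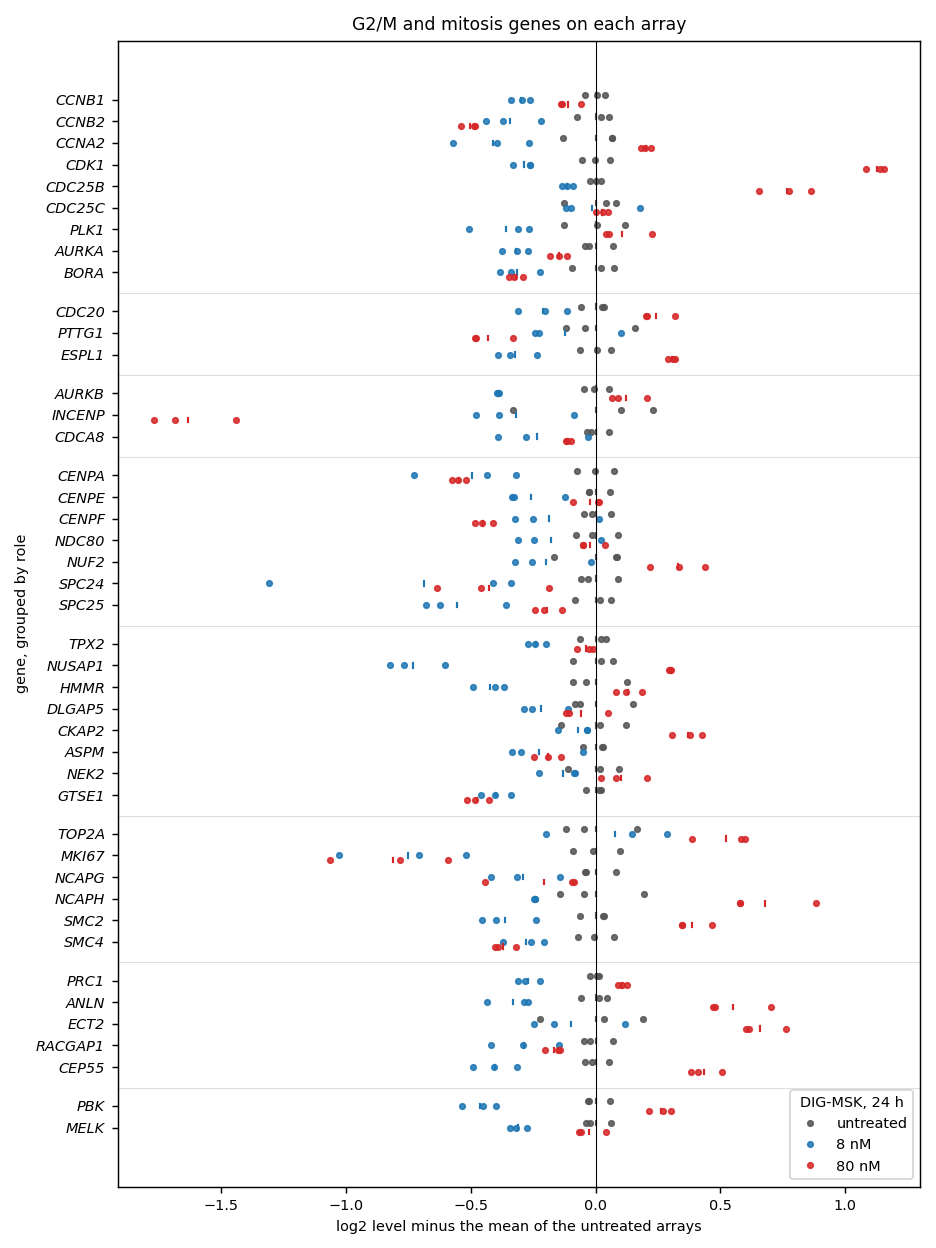
Log2 level of each gene on each of the 9 arrays minus the mean of the untreated arrays, with genes grouped by role from entry into mitosis (top) to other mitotic kinases (bottom); dots are arrays and short vertical ticks are group means. The 8 nM dots lie mostly to the left of 0, while the 80 nM dots lie to the far left for INCENP (-1.63) and to the far right for CDK1 (1.13); with spike-in scaling these values become -1.91 and 0.85.

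Counts by role group, here and below, stand beside 5.65% of all genes called lower and 7.83% higher at 8 nM. At 80 nM 25.6% of all genes were called lower and 33.2% higher. Scaled to the spike-in probes, 0 members were called at 8 nM, when 0.123% of all genes were lower and 1.6% higher. With that scaling only CDK1 was called higher at 80 nM, when 8.29% of all genes were. Among the kinases, cyclins and phosphatases of entry into mitosis, 7 of 9 were lower at 8 nM, and at 80 nM 2 were lower and 2 higher. CDK1 (NM_001786), the kinase that triggers mitosis, had log2 levels of 2.96, 3.07 and 3.01 on the untreated arrays, 2.68, 2.75 and 2.75 at 8 nM and 4.16, 4.10 and 4.17 at 80 nM. The 3 groups did not overlap, with 8 nM lowest and 80 nM highest. The change was -0.29 ± 0.06 at 8 nM (adjusted p = 0.0231) and 1.13 ± 0.06 at 80 nM (2.18-fold, adjusted p = 2.86e-06). CDC25B (NM_021873), a phosphatase that activates CDK1, measured 0.80, 0.84 and 0.82 in untreated cells, 0.69, 0.73 and 0.71 at 8 nM and 1.69, 1.48 and 1.60 at 80 nM. It was 1.7-fold higher at 80 nM (log2 change 0.76 ± 0.07, adjusted p = 4.52e-05), while its estimate at 8 nM, -0.11 ± 0.07, was not called (adjusted p = 0.31). CCNB2 (NM_004701), a B-type cyclin, measured 3.94, 3.90 and 3.81 untreated, 3.51, 3.67 and 3.45 at 8 nM and 3.40, 3.35 and 3.40 at 80 nM. Both treated groups lay below the untreated arrays, with changes of -0.34 ± 0.08 (adjusted p = 0.0241) and -0.50 ± 0.08 (adjusted p = 0.00075).

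The cyclins CCNB1 and CCNA2 were lower at 8 nM, with changes of -0.30 (adjusted p = 0.0179) and -0.41 (adjusted p = 0.0256), and had values of -0.11 and 0.20 at 80 nM, neither called. AURKA, the spindle pole kinase, changed by -0.32 at 8 nM (adjusted p = 0.0165) and had a value of -0.15 at 80 nM. BORA, the partner through which AURKA activates PLK1, was lower by nearly the same amount at both concentrations (-0.31 and -0.32). PLK1 was called at 8 nM by a narrow margin, with a change of -0.36 ± 0.10 and an adjusted p of 0.0491, and it lost the call in 16 of 19 alternatives. Other 8 nM calls were also lost often, in 15 of 19 for TPX2 and SMC4, 13 for ANLN, 12 for BORA and 11 for CDK1. NUSAP1, PBK and GTSE1 lost theirs in 1. CDC25C was called in neither comparison (-0.01 and 0.03).

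Of the genes that run the step from metaphase to anaphase, 1 of 3 was lower at 8 nM, and at 80 nM 2 were higher and 1 lower. ESPL1 (NM_012291), which encodes separase, measured 2.43, 2.50 and 2.56 on the untreated arrays, 2.11, 2.26 and 2.16 at 8 nM and 2.81, 2.82 and 2.79 at 80 nM. Its groups did not overlap, and the changes had opposite signs, -0.32 ± 0.07 at 8 nM (adjusted p = 0.0191), against 0.31 ± 0.07 at 80 nM (adjusted p = 0.00545). PTTG1 (NM_004219), which encodes securin, the inhibitor of separase, measured 5.07, 4.87 and 4.79 untreated, 4.68, 5.01 and 4.67 at 8 nM and 4.43, 4.43 and 4.58 at 80 nM. The 8 nM and untreated arrays overlapped, while all 80 nM arrays lay lower, with a change of -0.43 ± 0.12 (adjusted p = 0.0132). CDC20 (NM_001255), an activator of the anaphase-promoting complex, measured 2.57, 2.48 and 2.58 untreated, 2.34, 2.43 and 2.23 at 8 nM and 2.75, 2.75 and 2.86 at 80 nM. It was called at 80 nM only, by 0.24 ± 0.08 (adjusted p = 0.0243), a value that became -0.04 with spike-in scaling.

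The chromosomal passenger complex, which corrects faulty attachments of chromosomes, held the gene with the lowest log2 change of all 43 at 80 nM against untreated cells. INCENP (NM_001040694), its scaffold, measured 0.28, 0.71 and 0.84 in untreated cells, 0.23, 0.52 and 0.13 at 8 nM and -1.16, -0.83 and -1.07 at 80 nM. The 80 nM arrays lay far below the other 6, and the transcript was 3.1-fold lower (log2 change -1.63 ± 0.17, adjusted p = 8.11e-05), while the 8 nM arrays overlapped the untreated ones (-0.32 ± 0.17, adjusted p = 0.238). It was called lower at 80 nM in all 19 alternatives, with values between -1.91 and -1.50. AURKB (NM_004217), the kinase of the complex, measured 1.24, 1.18 and 1.14 untreated, 0.80, 0.80 and 0.80 at 8 nM and 1.39, 1.26 and 1.28 at 80 nM. It was lower at 8 nM (-0.39 ± 0.07, adjusted p = 0.00793) and had a value of 0.12 at 80 nM that was not called (adjusted p = 0.152). CDCA8 (NM_018101), which encodes the subunit borealin, measured 3.45, 3.38 and 3.36 untreated, 3.01, 3.37 and 3.12 at 8 nM and 3.30, 3.28 and 3.29 at 80 nM. It was called at neither concentration (adjusted p = 0.138 and 0.342), with untreated and 8 nM arrays overlapping.

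At the centromere and kinetochore, 2 of 7 genes were lower at 8 nM, and at 80 nM 2 were lower and 1, NUF2, was higher. CENPA (NM_001809), the histone H3 variant that marks centromeres, measured 0.53, 0.61 and 0.46 untreated, 0.21, -0.19 and 0.10 at 8 nM and 0.01, -0.02 and -0.04 at 80 nM. Both treated groups lay below the untreated arrays and overlapped each other, with changes of -0.49 ± 0.11 (adjusted p = 0.0192) and -0.55 ± 0.11 (adjusted p = 0.00244). CENPF (NM_016343), a large protein of the outer kinetochore, measured 4.99, 4.91 and 4.88 untreated, 4.61, 4.94 and 4.68 at 8 nM and 4.44, 4.47 and 4.52 at 80 nM. It was lower at 80 nM, with a change of -0.45 ± 0.09 (adjusted p = 0.00376), while 1 of the 8 nM arrays lay within the untreated range. SPC25 (NM_020675), a subunit of the NDC80 complex that holds microtubules, measured 1.52, 1.56 and 1.41 untreated, 0.82, 1.14 and 0.87 at 8 nM and 1.25, 1.29 and 1.36 at 80 nM. Its change was -0.55 ± 0.10 at 8 nM (1.47-fold lower, adjusted p = 0.00861) and -0.19 ± 0.10 at 80 nM, which was not called (adjusted p = 0.115).

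The other members of the NDC80 complex gave values of -0.18 for NDC80, -0.20 for NUF2 and -0.69 for SPC24 at 8 nM, none of them called. SPC24 measured -2.04, -3.01 and -2.11 at 8 nM against -1.61, -1.73 and -1.76 untreated, and without 8 nM replicate 2, which stood well below the others, its value was -0.37. At 80 nM NUF2 was higher by 0.33 ± 0.11 (adjusted p = 0.0329). CENPE, the kinetochore motor, had values of -0.26 and -0.02 and was called at neither concentration (adjusted p = 0.0685 and 0.827).

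Among regulators of the spindle, centrosome and microtubules, 4 of 8 were lower at 8 nM, and at 80 nM 1 was lower and 2 were higher. GTSE1 (NM_016426) measured 1.75, 1.74 and 1.69 untreated, 1.32, 1.39 and 1.27 at 8 nM and 1.25, 1.21 and 1.30 at 80 nM. All treated arrays lay below all untreated arrays, with changes of -0.40 ± 0.06 (adjusted p = 0.00631) and -0.47 ± 0.06 (adjusted p = 0.00037). NUSAP1 (NM_016359) measured 1.75, 1.91 and 1.86 untreated, 1.02, 1.24 and 1.07 at 8 nM and 2.14, 2.14 and 2.13 at 80 nM. Its 3 groups were apart, with 8 nM lowest and 80 nM highest. It was 1.66-fold lower at 8 nM (-0.73 ± 0.08, adjusted p = 0.00109) and 1.23-fold higher at 80 nM (0.30 ± 0.08, adjusted p = 0.0123). CKAP2 (NM_018204), a microtubule stabilizer, measured 1.62, 1.88 and 1.77 untreated, 1.61, 1.72 and 1.72 at 8 nM and 2.14, 2.06 and 2.18 at 80 nM. It overlapped the untreated range at 8 nM and was higher at 80 nM, by 0.37 ± 0.09 (adjusted p = 0.00598). HMMR and TPX2, which help to build the spindle, were lower at 8 nM (-0.42, adjusted p = 0.0119, and -0.24, adjusted p = 0.0422) and uncalled at 80 nM (0.13 and -0.04). DLGAP5, ASPM and NEK2 were called against untreated cells at neither concentration, with values between -0.23 and 0.10.

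Of the genes of chromosome structure and condensin, 3 of 6 were lower at 8 nM, and at 80 nM 2 were lower and 3 higher. NCAPH (NM_015341), a condensin subunit, measured -4.46, -4.37 and -4.12 untreated, -4.56, -4.56 and -4.56 at 8 nM and -3.74, -3.74 and -3.43 at 80 nM. NCAPH was the dimmest of the members, though well above background on all arrays. Its level was 1.6-fold higher at 80 nM (0.68 ± 0.11, adjusted p = 0.00116), and at 8 nM all arrays lay just below the untreated ones without a call (-0.24 ± 0.11, adjusted p = 0.188). MKI67 (NM_002417), which encodes the proliferation marker Ki-67, a coat of mitotic chromosomes, measured 1.86, 1.78 and 1.96 untreated, 1.16, 0.84 and 1.34 at 8 nM and 0.80, 1.27 and 1.08 at 80 nM. Its changes were -0.75 ± 0.16 (1.68-fold lower, adjusted p = 0.017) and -0.81 ± 0.16 (1.76-fold lower, adjusted p = 0.00234), although its probes disagreed at 80 nM, as the values by probe show. SMC4 (NM_005496), an ATPase of condensin, measured 2.94, 2.80 and 2.86 untreated, 2.61, 2.66 and 2.50 at 8 nM and 2.47, 2.55 and 2.46 at 80 nM. On the probe used its changes were -0.28 ± 0.07 (adjusted p = 0.0427) and -0.37 ± 0.07 (adjusted p = 0.00287), while its other probe was called at neither concentration. The partner ATPase SMC2 went lower at 8 nM (-0.36, adjusted p = 0.0211) and higher at 80 nM (0.38, adjusted p = 0.00364). NCAPG, another condensin subunit, was not called (-0.29 and -0.21), and TOP2A was higher at 80 nM by 0.52 ± 0.14 (adjusted p = 0.0112).

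Of the genes of the central spindle and cytokinesis, 3 of 5 were lower at 8 nM, while at 80 nM 3 were higher and 0 lower. None of these calls was kept with spike-in scaling. ANLN (NM_018685), a scaffold of the contractile ring, measured 0.67, 0.64 and 0.56 untreated, 0.35, 0.19 and 0.33 at 8 nM and 1.32, 1.09 and 1.10 at 80 nM. The groups did not overlap, and the changes were -0.33 ± 0.09 at 8 nM (adjusted p = 0.0423), against 0.55 ± 0.09 at 80 nM (adjusted p = 0.000911). CEP55 (NM_018131), a midbody protein, measured -0.04, 0.05 and -0.01 untreated, -0.49, -0.31 and -0.41 at 8 nM and 0.38, 0.41 and 0.51 at 80 nM. The groups were again apart, with changes of -0.40 ± 0.07 (adjusted p = 0.0105) and 0.43 ± 0.07 (adjusted p = 0.00123). ECT2 (NM_018098), which activates RhoA at the cleavage furrow, measured 0.19, 0.61 and 0.45 untreated, 0.25, 0.17 and 0.54 at 8 nM and 1.18, 1.02 and 1.03 at 80 nM. It overlapped the untreated range at 8 nM and was 1.58-fold higher at 80 nM (0.66 ± 0.13, adjusted p = 0.0029). PRC1, which bundles the central spindle, was lower at 8 nM (-0.27, adjusted p = 0.0208), and RACGAP1, its neighbour in that structure, just missed the threshold (-0.29, adjusted p = 0.0562).

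Both remaining mitotic kinases were lower at 8 nM. PBK (NM_018492) measured 2.63, 2.72 and 2.63 untreated, 2.12, 2.20 and 2.26 at 8 nM and 2.93, 2.87 and 2.96 at 80 nM, with no overlap between groups. Its changes were -0.46 ± 0.07 (1.38-fold lower, adjusted p = 0.00412) and 0.26 ± 0.07 (adjusted p = 0.0107), the latter becoming -0.02 with spike-in scaling. MELK (NM_014791) measured 1.95, 2.04 and 1.94 untreated, 1.63, 1.66 and 1.70 at 8 nM and 2.02, 1.92 and 1.91 at 80 nM. Its 80 nM arrays lay within or near the untreated range (-0.03, adjusted p = 0.735), while all 8 nM arrays lay below it (-0.31 ± 0.07, adjusted p = 0.0183).

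The direct comparison of the concentrations asked whether the same genes differed between 8 nM and 80 nM. It shares the 8 nM arrays with the first comparison and the 80 nM arrays with the second, so its values are not independent of theirs. Of the 43 genes, 25 were higher at 80 nM than at 8 nM and 2, INCENP and CENPF, were lower, against 34.6% of all genes called higher and 22.9% lower. With spike-in scaling only CDK1 and NUSAP1 were called higher, against 5.96% of all genes. With that scaling 3 genes, INCENP, CENPF and PTTG1, were called lower, against 23.4% of all genes. The median difference was 0.26, against 0.12 for all genes, and with spike-in scaling these became -0.10 and -0.24. In 26 genes all 80 nM arrays lay above all 8 nM arrays (39.3% of all genes), and in 4 they lay below (25.5% of all genes). By the study's rule 11 were higher (19.5% of all genes) and 1, INCENP, was lower (14.2% of all genes).

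The largest difference was that of CDK1, 1.41 on the log2 scale (2.66-fold, 95% interval 1.26 to 1.56, adjusted p = 8.5e-07), followed by NUSAP1 with 1.03 (2.04-fold, 95% interval 0.85 to 1.21, adjusted p = 1.74e-05). NCAPH, ANLN, CDC25B and CEP55 differed by 0.92, 0.88, 0.88 and 0.84. INCENP was 2.48-fold lower at 80 nM than at 8 nM (-1.31, 95% interval -1.70 to -0.93, adjusted p = 0.000289). CENPF differed by -0.26 (adjusted p = 0.0408), a call lost in 13 of 19 alternatives. The other probe of CENPF gave -0.38 (adjusted p = 0.00467, in a fit across all probes). Calls of higher genes were also lost, most often for NEK2 (13 of 19), CCNB1 (12), CENPE (9) and TPX2 (9). In the fit across all probes the other probe of NEK2 gave -0.19 (adjusted p = 0.185) and that of CCNB1 0.11 (adjusted p = 0.263). Of the 6 genes lower at both concentrations on the probe used, none was called between them. The 95% intervals were -0.22 to 0.07 for GTSE1, -0.34 to 0.02 for CCNB2 and -0.30 to 0.19 for CENPA. They were -0.26 to 0.08 for SMC4, -0.18 to 0.17 for BORA and -0.42 to 0.30 for MKI67. These intervals hold for the scaling used. Over the 19 alternatives the difference reached -0.43 for GTSE1 and -0.52 for CCNB2, which were called in 1 and 2 of them, -0.41 for CENPA and -0.45 for SMC4, and the probes of MKI67 did not agree. Of all genes, 34.6% were called higher at 80 nM than at 8 nM. By role, the genes higher at 80 nM than at 8 nM numbered 5 of 9 for entry into mitosis, 2 of 3 for the metaphase to anaphase step, 1 of 3 for the passenger complex, 3 of 7 at the kinetochore, 5 of 8 at the spindle, 3 of 6 for chromosome structure, 4 of 5 for cytokinesis and 2 of 2 for the other kinases.

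**Figure D4:**
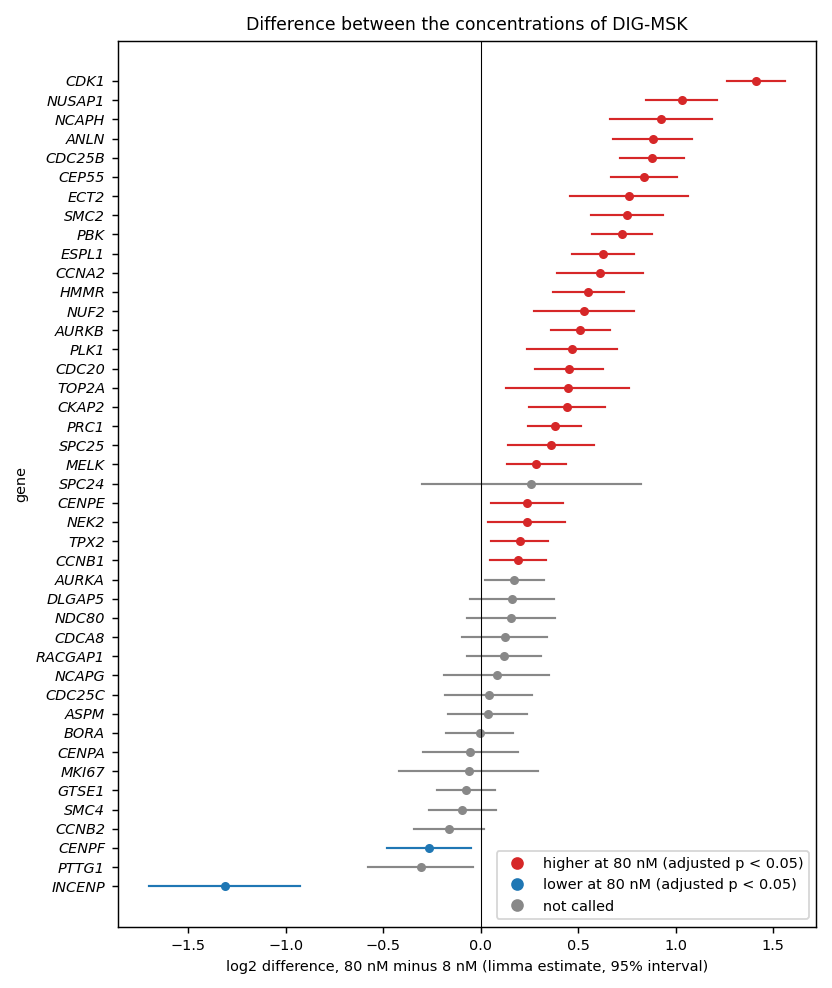
Log2 difference between cells given 80 nM and 8 nM DIG-MSK for 43 genes, ordered by size; points are limma estimates and lines are 95% intervals, in red where higher at 80 nM, blue where lower and grey where not called. CDK1 (1.41) and NUSAP1 (1.03) stand at the top and INCENP (-1.31) at the bottom. Of the 25 genes in red only CDK1 and NUSAP1 kept the call with spike-in scaling, when 5.96% of all genes were called higher.

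For 10 genes more than 1 probe was measured, and the values above are from the probe with the highest mean level. At 8 nM all probes of these genes gave values below 0. At 80 nM they differed in several genes. MKI67 had log2 changes of -0.81 (adjusted p = 0.00237, in a fit across all probes), 0.76 (adjusted p = 0.000174) and -0.22 (adjusted p = 0.277) on its 3 probes, all of the same RefSeq transcript, so that no direction can be given for this gene at 80 nM. NEK2 gave 0.10 with the probe used and -0.53 with the other (adjusted p = 0.0043). SMC4 gave -0.37 and 0.05, CEP55 gave 0.43 and -0.08, and CKAP2 gave 0.37 and -0.01, so the calls of these genes at 80 nM rest on 1 probe of 2. The 8 nM call of SMC4 also rests on 1 probe, as the other gave -0.10 there (adjusted p = 0.44). CENPF was lower on both (-0.45 and -0.82), SMC2 was higher on both (0.38 and 0.38), and CCNB1 had -0.11 and -0.18. At 8 nM CENPF was called on the other probe (-0.44, adjusted p = 0.0127) and not on the probe used. PLK1, called narrowly at 8 nM, had a lower value on its dimmer probe (-0.76, adjusted p = 0.00766) than on the probe used (-0.36).

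**Figure D5:**
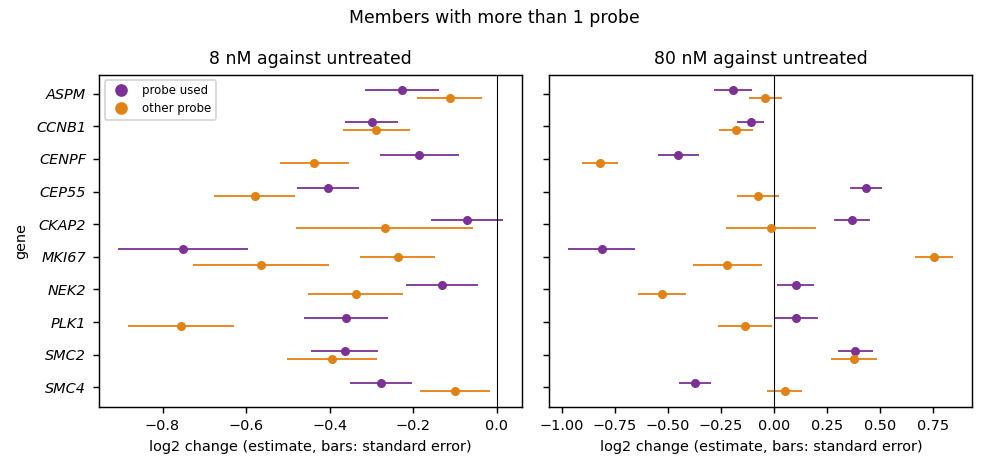
Log2 change on each probe of the 10 genes with more than 1 probe, at 8 nM (left) and at 80 nM (right) against untreated cells; points are limma estimates, bars are standard errors, and the probe used for the gene is purple. At 8 nM all points lie below 0, while at 80 nM the probes of MKI67 range from -0.81 to 0.76.

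Other genes of cell division were set beside these from 4 lists. Of 85 further mitosis genes, 24 (28.2%) were lower and 0 higher at 8 nM (median -0.24), against 5.65% and 7.83% of all genes. At 80 nM 21 were lower and 22 higher (median 0.04). Of all genes, 25.6% were called lower and 33.2% higher at 80 nM, so the shares there (24.7% and 25.9%) were not above the background. With spike-in scaling 0 of the 85 were called at 8 nM (median -0.17), when 0.123% of all genes were lower and 1.6% higher. At 80 nM 19 were lower and 0 higher with that scaling, when 23.1% of all genes were lower and 8.29% higher. Before that scaling, the lowest adjusted p at 8 nM was that of TACC3, a spindle microtubule protein (-0.75 ± 0.11, adjusted p = 0.00357; with spike-in scaling -0.67, adjusted p = 0.159), and at 80 nM that of FZR1, the late activator of the anaphase-promoting complex (-1.21 ± 0.12, adjusted p = 5.54e-05). Of 46 DNA replication genes, 19 (41.3%) were lower and 1 (2.17%), PCNA, higher at 8 nM (median -0.31), against the same 5.65% and 7.83%. ORC1 of the origin recognition complex was at -0.57 ± 0.08 (adjusted p = 0.00312). At 80 nM 7 were lower and 14 higher (15.2% and 30.4%, below the shares of all genes, with a median of -0.01), among the latter POLD2, a subunit of DNA polymerase delta (0.78 ± 0.06, adjusted p = 2.36e-05). With spike-in scaling 6 of the 46 were lower and 0 higher at 80 nM, against 23.1% and 8.29% of all genes. With that scaling 0 were called at 8 nM, where the median was -0.24.

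Among 15 regulators of G2/M transcription, 2 were lower and 1 higher at 8 nM (13.3% and 6.67%, against 5.65% and 7.83% of all genes). MYBL2, which encodes B-MYB, measured 1.38, 1.41 and 1.49 on the untreated arrays, 0.57, 0.71 and 0.62 at 8 nM and 1.67, 1.57 and 1.73 at 80 nM. The groups did not overlap, and the change at 8 nM was -0.79 ± 0.07 (adjusted p = 0.000515), or -0.72 with spike-in scaling (adjusted p = 0.174). The pocket proteins of the family moved apart, RBL1 (p107) being lower (-0.52 ± 0.06, adjusted p = 0.00151) and RBL2 (p130, a DREAM subunit) higher (0.34 ± 0.07, adjusted p = 0.0188). With spike-in scaling 0 of the 15 were called at 8 nM, with -0.45 for RBL1 (adjusted p = 0.595) and 0.42 for RBL2 (adjusted p = 0.692). Of all genes, 0.123% were called lower and 1.6% higher there. At 80 nM NFYA, a subunit of the CCAAT-binding factor, was lower (-0.53 ± 0.07, adjusted p = 0.000272) and E2F4 was higher (0.77 ± 0.11, adjusted p = 0.000413), though the call of E2F4 was lost with spike-in scaling (0.49, adjusted p = 0.18), and MYBL2 differed between the concentrations by 1.02 ± 0.07 (adjusted p = 1.14e-05). Of 9 listed effectors of G2 arrest, 7 were tested. At each concentration 5 of them were higher and 0 lower, with a median of 1.14 at both. Of all genes, 7.83% were called higher at 8 nM and 33.2% at 80 nM. Scaled to the spike-in probes, 4 were higher at each concentration, with medians of 1.22 at 8 nM and 0.86 at 80 nM. In the direct comparison 2 of the 7 were lower and 2 higher at 80 nM than at 8 nM, against 22.9% and 34.6% of all genes. CDKN1A, the p21 inhibitor of cyclin-dependent kinases, was higher by 1.82 ± 0.14 at 8 nM (adjusted p = 0.000219) and by 1.90 ± 0.14 at 80 nM (adjusted p = 1.24e-05). BTG2, an antiproliferative target of p53, was higher by 1.86 ± 0.10 (adjusted p = 5.18e-05) and 2.22 ± 0.10 (adjusted p = 8.6e-07). Whether these genes have a part in the changes of the mitotic genes was not tested.

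Motif shares by call are a description of the promoters shown at the start. Of the 20 promoters of genes lower at 8 nM, 80.0% held a CHR match, 80.0% a CCAAT box and 70.0% a GC box. At 80 nM, 9 genes were lower, with 88.9%, 88.9% and 66.7%, and 13 genes with a promoter in the table were higher, with 76.9%, 61.5% and 76.9%. Among all 39 the shares were 69.2%, 71.8% and 76.9%, and no test was made on these numbers.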

How the data were processed

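RNA from 9 A2780 cultures, which the methods of the study call independent biological replicates, was measured on 1-colour arrays, 3 per group. The authors scanned the arrays with background subtraction in Agilent Feature Extraction 10.7.3.1, and the deposited processed intensity is not scaled between arrays. A deposited table of the authors' log2 values served as an alternative, and its correlation with the median spot signal on the log2 scale ranged from 0.9986 to 0.9998 per array. Here each array's log2 processed intensities were set relative to their 75th percentile. Control spots and outlier-flagged spots were left out, and spots of a probe were averaged. A probe was kept if every array of any 1 group had it well above background (26637 probes), and a gene was represented by its probe with the highest mean level. Probes were named by RefSeq accession through a table of RefSeq genes on GRCh38.p14 (25715 of 27245 accessions matched), and the motif search used the table of promoters of the same assembly.

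Groups were compared with limma 3.58.1 in R 4.3.3 (lmFit and eBayes) over all 9 arrays, without a block, with Benjamini-Hochberg adjustment over 21981 genes, and a gene was called at an adjusted p under 0.05. Counts by the study's own fold rule accompany these. Scripts were first tested on simulated data with known changes. Alternatives were normexp correction (offset 50) of the median spot signal, quantile normalization, the authors' log2 values, scaling to the median or to 10 spike-in probes, omitting the filter or requiring all 9 arrays, averaging the probes of a gene, fitting only the groups compared, the replicate number as a block, the study's rule, and leaving out single arrays.

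The members, their 8 role groups and the lists of other genes were chosen with earlier results of these data known. Any of the members could be named; values per array are given for up to 3 genes of each role group with the lowest adjusted p against untreated cells, with a few more chosen after their values were seen (SPC24 and MYBL2). Genes of other lists were named where they had 1 of the 3 lowest adjusted p-values of their list in a comparison, while SFN was named after its values were seen. The number of arrays limits the precision.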

Additional observations from a re-analysis of the deposited data

Results flagged for a closer look

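In ANLN, CDK1, CEP55, ESPL1, NUSAP1, PBK and SMC2 the change at 8 nM and the change at 80 nM had opposite signs and were each called (limma, Benjamini-Hochberg adjustment). The direct comparison of the concentrations also called the difference. That call follows from called changes of opposite sign in the same fit, so it adds no support of its own. The share of all genes with this pattern is not given here. The change at 8 nM and the change at 80 nM use the same untreated arrays. The log2 difference, 80 nM minus 8 nM, was 1.41 for CDK1 (adjusted p = 8.5e-07), 1.03 for NUSAP1 (adjusted p = 1.74e-05) and 0.88 for ANLN (adjusted p = 7.5e-05). It was 0.84 for CEP55 (adjusted p = 3.62e-05), 0.75 for SMC2 (adjusted p = 0.00011), 0.72 for PBK (adjusted p = 5.24e-05) and 0.63 for ESPL1 (adjusted p = 0.000127). With spike-in scaling the difference was called for CDK1 and NUSAP1 only, none of the 7 was called at 8 nM, and only CDK1 was called at 80 nM against untreated cells, where PBK turned to -0.019. The 8 nM call was lost in 11 of 19 alternatives for CDK1 and in 13 of 19 for ANLN, and the other probe of CEP55 gave -0.075 at 80 nM (adjusted p = 0.53). Since the 80 nM arrays were on a slide of their own, concentration and slide cannot be told apart in any of these genes.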

How the results depend on the processing

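The number of genes lower at 8 nM, 23, was 11 with scaling to the median, 0 with spike-in scaling (0.123% of all genes) and 9 with no filter on dim probes. It was 7 with only the groups compared in the fit, 3 by the study's fold rule (2.87% of all genes) and 9 to 28 when an array was left out. Where no share of all genes is given, here and below, the count has no background beside it. Over all 21 settings the median of the members at 8 nM minus that of all genes lay between -0.28 and -0.21. The number higher at 80 nM, 14, was 1 with spike-in scaling (8.29% of all genes), 4 by the fold rule (18.9% of all genes) and 12 to 15 with an array left out. The number lower, 9, was 2 by the fold rule (16.4% of all genes) and 9 to 13 with an array left out. Between the concentrations, the 25 genes higher at 80 nM became 2 with spike-in scaling (5.96% of all genes), 11 by the fold rule (19.5% of all genes) and 20 to 27 with an array left out. The 2 lower became 4 with quantile normalization and 5 with the authors' log2 values. They became 1 with scaling to the median, no filter, only the groups compared or the fold rule (14.2% of all genes), and 1 to 2 with an array left out. The number higher at 8 nM was 0 throughout. With spike-in scaling the sign turned for CDC20 (-0.038) and PBK (-0.019) at 80 nM against untreated, and for CCNB1 (-0.17), CENPE (-0.12), TPX2 (-0.16), NEK2 (-0.12) and MELK (-0.073) between the concentrations. With the mean of its probes MKI67 was higher at 80 nM than at 8 nM (0.43, adjusted p = 0.0139). The cause of these changes was not tested. Replicate numbers were not taken to pair the arrays: the correlations of same-numbered arrays were -0.122 to 0.159 over 9 pairs, and 4 of 9 arrays were closest to their own number. Between untreated and 8 nM arrays, which share slide 1, the 3 same-numbered pairs gave 0.112, 0.099 and 0.159, a hint of pairing from the data and not from the design. The other 6 pairs gave -0.118 to -0.00475. These add nothing to the hint, because values were taken relative to each group's mean. Positive same-numbered pairs then force the others to be negative on average. With the replicate block 13 genes were lower at 8 nM and 1 was lower at 80 nM than at 8 nM, the other counts staying within 1.5 times.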
